A study of Mus musculus with 31 samples.

Results

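The genes described here encode the subunits and assembly factors of complex I, the NADH:ubiquinone oxidoreductase of the mitochondrial inner membrane. They were chosen by name: every gene whose symbol begins with Ndufa, Ndufb, Ndufc, Ndufs, Ndufv or Ndufaf followed by a number was taken, and annotated pseudogenes were left out. The rule gave 44 genes of the 39017 in the count table. By their textbook roles, 7 encode nuclear core subunits, 9 encode accessory subunits of the matrix arm, 19 encode accessory subunits of the membrane arm and 7 encode Ndufaf assembly factors. The remaining members, Ndufa4 and Ndufa4l2, carry the name but are not counted as stable subunits of complex I. None of the 44 had 0 counts in every library, and all 44 passed the filter on low counts in each fit.

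Complex I takes electrons from NADH, passes them through a flavin and a chain of iron-sulfur clusters in its matrix arm to ubiquinone, and pumps protons through its membrane arm. Its catalytic core is encoded partly in the nucleus and partly in mitochondrial DNA, and nuclear accessory subunits surround that core. Assembly factors join modules of the enzyme and do not remain in the finished complex. Biguanides such as phenformin inhibit this enzyme, and poly I:C, a synthetic double-stranded RNA, activates Toll-like receptor 3 and interferon responses.

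Bulk messenger RNA was sequenced from 31 libraries of mouse breast tumours grown orthotopically in syngeneic hosts. Sample titles name the models 4T1, which the design text pairs with BALBc mice, and MT, paired with FVB mice. In each model the arms were poly I:C with phenformin (combination), poly I:C with PBS (poly I:C), saline with phenformin (phenformin) and saline with PBS (control), with 4 libraries per group except 3 for 4T1 phenformin. All carry the label WT, and no age, dose or treatment time is used here. The tissue and cell line labels name the opposite model to the titles, and groups follow the titles here. H2-Ea-ps, a class II gene that BALBc mice express and FVB mice do not, had 222 to 1011 CPM (read counts scaled by library size, as described under processing) in libraries titled 4T1 and 5.42 to 50.9 CPM in those titled MT. The strain marker thus sits with the titles and the design text. The labels do not say that replicates came from separate animals, so p-values measure the spread between libraries, which may be technical.

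Library totals ran between 12160110 counts in MT control replicate 4 and 19849915 counts in 4T1 phenformin replicate 2. MT libraries differ in tumour markers in a way that moves with the arms. The neural crest factor Sox10 had 0.671, 2.45, 3.06 and 1.69 CPM in MT combination libraries 1 to 4, 0.826, 2.25, 1.51 and 1.42 CPM in MT poly I:C, 195, 193, 33.5 and 2.59 CPM in MT phenformin and 173, 218, 174 and 1.30 CPM in MT control libraries. The basal keratin Krt5 ran the other way, with 330.0, 2102, 1823 and 1676 CPM in MT combination, 2452, 1475, 1311 and 2089 CPM in MT poly I:C, 37.5, 33.4, 1611 and 1029 CPM in MT phenformin and 29.7, 21.4, 23.6 and 2199 CPM in MT control libraries. Control replicate 4 therefore resembled the poly I:C and combination libraries in these markers, and the other 3 MT controls did not. In 4T1, the muscle actin Acta1 exceeded 10 CPM in 5 libraries and the immunoglobulin light chain gene Igkc exceeded 100 CPM in 3. No 4T1 control was among the Acta1-high libraries, with at most 0.764 CPM. Acta1 reached 244 CPM in 4T1 combination, 42.7 CPM in 4T1 phenformin and 34.2 CPM in 4T1 poly I:C libraries. In bulk tissue, fewer cells of a type and less RNA per cell cannot be told apart.

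The sequence before the RefSeq transcription start is shown first for 4 members that were lower in MT poly I:C tumours. Many nuclear genes of the respiratory chain share promoter motifs. Ndufb3 and Ndufa3 were also called in MT combination tumours, and Ndufa8 and Ndufb7 were added by hand. The 4 therefore do not show how common a motif is among the lower members. Windows from 250 bases before to 50 bases after the transcription start were taken from RefSeq (GRCm38.p6) and matched 38 of the 44 members by symbol. The 250 bases before the start lie at chr1:58586147-58586396 on the plus strand for Ndufb3, chr7:3617123-3617372 on the plus strand for Ndufa3, chr2:36049339-36049588 on the minus strand for Ndufa8 and chr8:83566508-83566757 on the plus strand for Ndufb7, each written 5′ to 3′. Capitals mark a match to the NRF1 motif (GCGC, any base, then TGCGC; in Ndufa8) or to the ETS motif CCGGAAG (in Ndufb7). The Ndufb3 and Ndufa3 stretches hold neither. Both capital stretches lie inside the genes as annotated in GENCODE M21, where Ndufa8 starts at chr2:36049406 (minus strand) and Ndufb7 at chr8:83566671 (plus strand).
Ndufb3: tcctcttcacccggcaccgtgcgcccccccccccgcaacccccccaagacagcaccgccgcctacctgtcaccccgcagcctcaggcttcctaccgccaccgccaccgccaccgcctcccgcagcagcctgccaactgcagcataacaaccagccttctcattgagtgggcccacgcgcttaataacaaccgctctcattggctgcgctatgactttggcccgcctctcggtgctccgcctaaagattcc
Ndufa3: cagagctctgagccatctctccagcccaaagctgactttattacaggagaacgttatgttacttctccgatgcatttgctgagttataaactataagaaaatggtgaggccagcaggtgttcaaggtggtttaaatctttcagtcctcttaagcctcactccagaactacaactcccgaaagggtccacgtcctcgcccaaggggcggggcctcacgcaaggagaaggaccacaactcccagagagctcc
Ndufa8: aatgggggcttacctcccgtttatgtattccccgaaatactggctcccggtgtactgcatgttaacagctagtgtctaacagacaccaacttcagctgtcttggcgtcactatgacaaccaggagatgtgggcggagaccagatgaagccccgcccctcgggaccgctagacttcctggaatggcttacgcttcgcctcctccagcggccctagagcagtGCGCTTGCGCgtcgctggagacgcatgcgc
Ndufb7: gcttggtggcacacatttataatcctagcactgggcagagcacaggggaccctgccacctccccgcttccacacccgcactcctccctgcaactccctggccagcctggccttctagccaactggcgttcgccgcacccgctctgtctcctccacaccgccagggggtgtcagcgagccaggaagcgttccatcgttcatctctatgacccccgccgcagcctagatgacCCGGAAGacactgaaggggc

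Each motif was searched on both strands of the 300-base windows, and a base could count towards more than one motif. The NRF1 motif was in 9 of 38 members with a window (23.7%), against 5.19% of all 27025 genes with one. Those 27025 include genes not tested here, and a gene counted if any of its windows matched. The share among the genes tested is not given here. The YY1 motif AAGATGGC was in 7 of 38 (18.4%), against 3.19% of all. The ETS motif was in 13.2% of these members and 9.93% of all. For the SP motif GGGCGG the shares were 50% and 38.2%, and for the hypoxia element core ACGTG 18.4% and 21.8%. Among the 22 members with a window that were lower in MT poly I:C tumours, 4 held the NRF1 motif, 5 the YY1 motif and 3 the ETS motif. Among the 16 others with a window 5, 2 and 2 did. These matches are descriptions of the letters, not binding sites.

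Levels between genes are compared per kilobase of the main annotated transcript, so they depend on the transcript chosen. In 4T1 controls the highest levels per kilobase were those of Ndufb9, an accessory subunit of the LYR family (232 ± 19.9 CPM per kb, SD, n = 4), Ndufa4, now assigned to cytochrome c oxidase (140.3 ± 17.8), and Ndufb8, a membrane arm subunit (109 ± 18.2). In MT controls they were Ndufa4 (308 ± 48.3 CPM per kb), Ndufb8 (209 ± 19.2) and Ndufa2, a matrix arm subunit with a thioredoxin fold (153 ± 23.7).

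The lowest levels per kilobase in 4T1 controls belonged to Ndufb4 (1.08 ± 0.329 CPM per kb), Ndufb2 (3.26 ± 0.380) and the assembly factor Ndufaf3 (3.94 ± 0.637). In MT controls they belonged to Ndufs5 (1.30 ± 0.490 CPM per kb), Ndufb4 (2.70 ± 1.32) and the assembly factor Ndufaf6 (5.81 ± 0.580). Copies and transcript models bear on these values. Of the 50-base stretches of the Ndufb4 transcript, 37% also occur in the copy Ndufb4c, and the main transcript of Ndufb2 is annotated at 4371 bases. Ndufs5 shares 31.1% of its 50-base stretches with a processed pseudogene, described below. The Ndufaf genes as a group lay low: 5 of the 7, all but Ndufaf2 and Ndufaf7, were under 15 CPM per kb in both control groups.

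The summed level of the 44 genes was lower in 4T1 than in MT tumours in every arm, and in MT it was lowest with poly I:C. It was 2014, 2002, 1852 and 2114 CPM in 4T1 combination libraries, 1854, 1781, 1937 and 1741 CPM in 4T1 poly I:C, 2067, 2224 and 2223 CPM in 4T1 phenformin and 1932, 1961, 2039 and 2335 CPM in 4T1 control libraries. It was 2834, 2668, 2483 and 2949 CPM in MT combination libraries, 2535, 2209.9, 2115 and 2285 CPM in MT poly I:C, 2559, 2913, 2931 and 2766 CPM in MT phenformin and 2913, 3334, 3254 and 3111 CPM in MT control libraries. The highest of the 4 MT poly I:C libraries lay below the lowest MT control, whereas the 4T1 arms overlapped, apart from 4T1 phenformin, whose 3 libraries lay above all 4 poly I:C libraries. MT control replicate 4, with high Krt5 and little Sox10, had 3111 CPM and sat among the other MT controls. These sums are dominated by the more abundant members and carry no test.

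**Figure D1:**
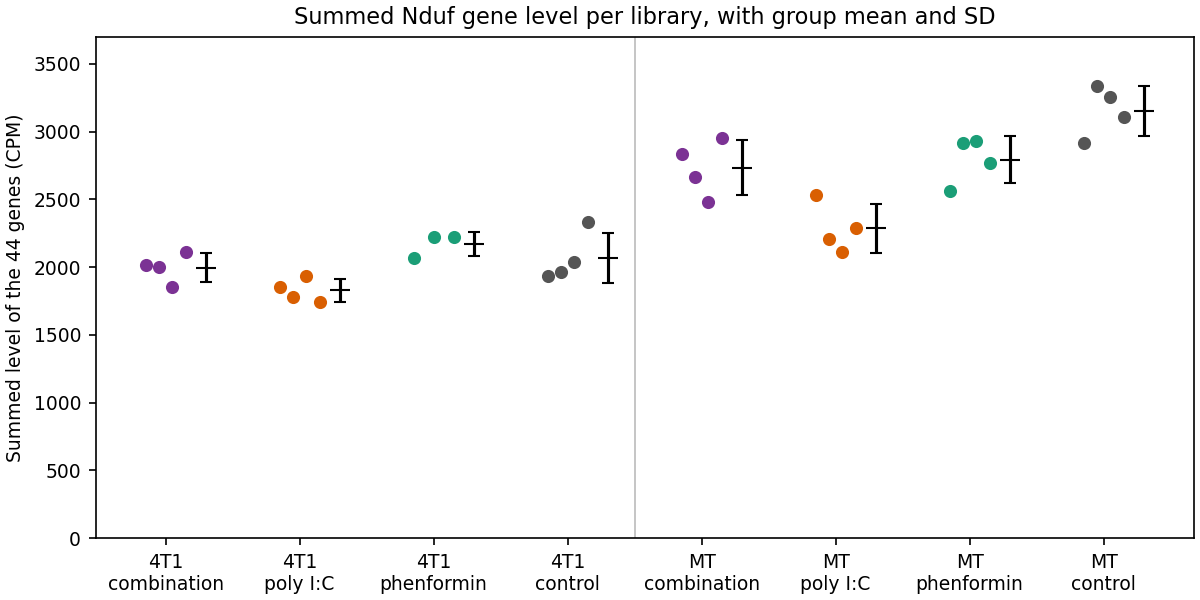
Summed level of the 44 Nduf genes in CPM (vertical axis, from 0) in each of 31 libraries (points), by model and arm; the black mark and bar beside each group are its mean and SD. MT poly I:C libraries sit between 2115 and 2535 CPM, below the 4 MT controls at 2913 to 3334 CPM, and the 4T1 libraries range between 1741 and 2335 CPM.

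The complex I genes were broadly lower in MT tumours given poly I:C alone. Of the 44 members, 26 were called lower in poly I:C than in control libraries and none higher, at an adjusted p under 0.05 (edgeR quasi-likelihood test, Benjamini-Hochberg adjustment over all 17857 genes tested). Over all genes 11.1% were called lower and 8.52% higher. The median log2 fold change was -0.44 over the members and 0.01 over all genes tested. For 30 members every poly I:C library lay below every control library, against 12.9% of all genes. DESeq2 called 32 members and 27.1% of all genes.

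All 7 nuclear core subunits were called lower with poly I:C in MT tumours. Ndufs7, which carries the last iron-sulfur cluster before ubiquinone, had 23.7, 23.1, 26.1 and 26.2 CPM in poly I:C libraries and 35.7, 41.8, 36.8 and 43.2 CPM in control libraries (log2 fold change -0.65 ± 0.13, adjusted p = 0.00587; fold changes are given ± SE). Ndufv2, a flavin-side iron-sulfur subunit, averaged 109 ± 10.4 CPM in poly I:C and 165 ± 14.8 CPM in control libraries (SD, n = 4 each; log2 fold change -0.58 ± 0.11, adjusted p = 0.00482). For both genes the groups did not overlap. Ndufs1, the largest iron-sulfur subunit, had the smallest change of the core, with 106, 98.6, 101 and 103 CPM in poly I:C and 119, 132, 128 and 112 CPM in control libraries (log2 fold change -0.25 ± 0.08, adjusted p = 0.0419). The core subunits thus spanned changes of -0.65 to -0.25 on the log2 scale.

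Among the 9 matrix arm accessory subunits 4 were called lower with poly I:C, and the largest decrease of any member was there. Ndufa2 had 55.3, 39.2, 39.9 and 42.6 CPM in MT poly I:C libraries, against 76.3, 95.6, 102 and 75.6 CPM in MT control libraries (log2 fold change -0.97 ± 0.14, adjusted p = 0.00163). Ndufa5, a subunit at the ubiquinone end of the arm, had 50.6, 42.02, 39.5 and 44.8 CPM in poly I:C, against 73.1, 76.5, 72.1 and 76.6 CPM in control libraries (log2 fold change -0.74 ± 0.12, adjusted p = 0.00197). The groups did not overlap for either gene. Ndufs6 and Ndufa12 were the other called members. Ndufs4, whose loss in mice gives a Leigh-like encephalopathy, was not called, with 81.4, 82.7, 61.7 and 75.8 CPM in poly I:C and 67.8, 72.4, 72.4 and 98.5 CPM in control libraries. Ndufa7 was not called either (log2 fold change 0.02 ± 0.15, adjusted p = 0.944).

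Of the 19 membrane arm accessory subunits 14 were called lower in MT poly I:C tumours and all 19 estimates were negative. Ndufc1, a small subunit of the proximal arm, had 28.6, 24.5, 23.00 and 26.5 CPM in poly I:C and 44.4, 47.02, 51.2 and 35.8 CPM in control libraries (log2 fold change -0.78 ± 0.13, adjusted p = 0.00245). Ndufb7, which faces the intermembrane space, had 56.97, 54.5, 50.5 and 53.04 CPM in poly I:C and 79.2, 96.1, 98.98 and 79.9 CPM in control libraries (log2 fold change -0.70 ± 0.11, adjusted p = 0.00197). Ndufb3, of the distal arm, had 66.2, 53.2, 50.5 and 57.4 CPM in poly I:C and 91.9, 104, 87.3 and 83.2 CPM in control libraries (log2 fold change -0.67 ± 0.10, adjusted p = 0.00181). All 3 genes were lower in each poly I:C library than in any control. Ndufb6 was not called (log2 fold change -0.13 ± 0.14, adjusted p = 0.528).

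Of the 7 Ndufaf assembly factors 1 was called lower with poly I:C in MT tumours, and the median log2 fold change of the 7 was -0.04. The called gene was Ndufaf2, a paralogue of Ndufa12 that holds its place during assembly. It had 15.6, 16.6, 12.8 and 14.01 CPM in poly I:C libraries, against 27.5, 20.96, 24.8 and 20.7 CPM in control libraries, without overlap (log2 fold change -0.66 ± 0.15, adjusted p = 0.0104). Ndufaf4, needed for the ubiquinone module, was not called, at 37.7, 40.6, 33.2 and 36.1 CPM in poly I:C and 31.4, 31.2, 30.4 and 39.4 CPM in control libraries. Ndufaf5, which hydroxylates Ndufs7, was not called either (log2 fold change 0.20 ± 0.15, adjusted p = 0.364). The difference in response between assembly factors and subunits was not tested.

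Other markers moved with poly I:C in MT tumours. All 8 genes of a macrophage list were called higher, with a summed level of 1958 to 2501 CPM in poly I:C and 583 to 762 CPM in control libraries. Neutrophil genes were mixed. Of 9 tested 5 were called higher, but S100a8 (log2 fold change -3.47 ± 1.29, adjusted p = 0.0719) and Camp (log2 fold change -1.99 ± 0.96, adjusted p = 0.151) had negative estimates that were not called. The sums of that list were 250.1 to 535 CPM in poly I:C and 104 to 2536 CPM in control libraries, and they overlapped. Of 9 adipocyte genes 1 was called higher, with sums of 350.4 to 2057 CPM in poly I:C and 78.7 to 440.0 CPM in control libraries. A Sox10-led neural crest list had 1 of 5 tested genes lower, with sums of 27.8 to 39.8 CPM in poly I:C and 32.5 to 253 CPM in control libraries. Their part in the lower complex I transcripts was not tested. With a Krt5-to-Sox10 term in the fit 18 members were called. The share of all genes called in that fit is not given here, so this count is not read as a result about the members. Without the 6 MT libraries above 10 CPM Sox10, which leaves control replicate 4 as the only control, no gene in the table was called and the members' median was -0.38.

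**Figure D2:**
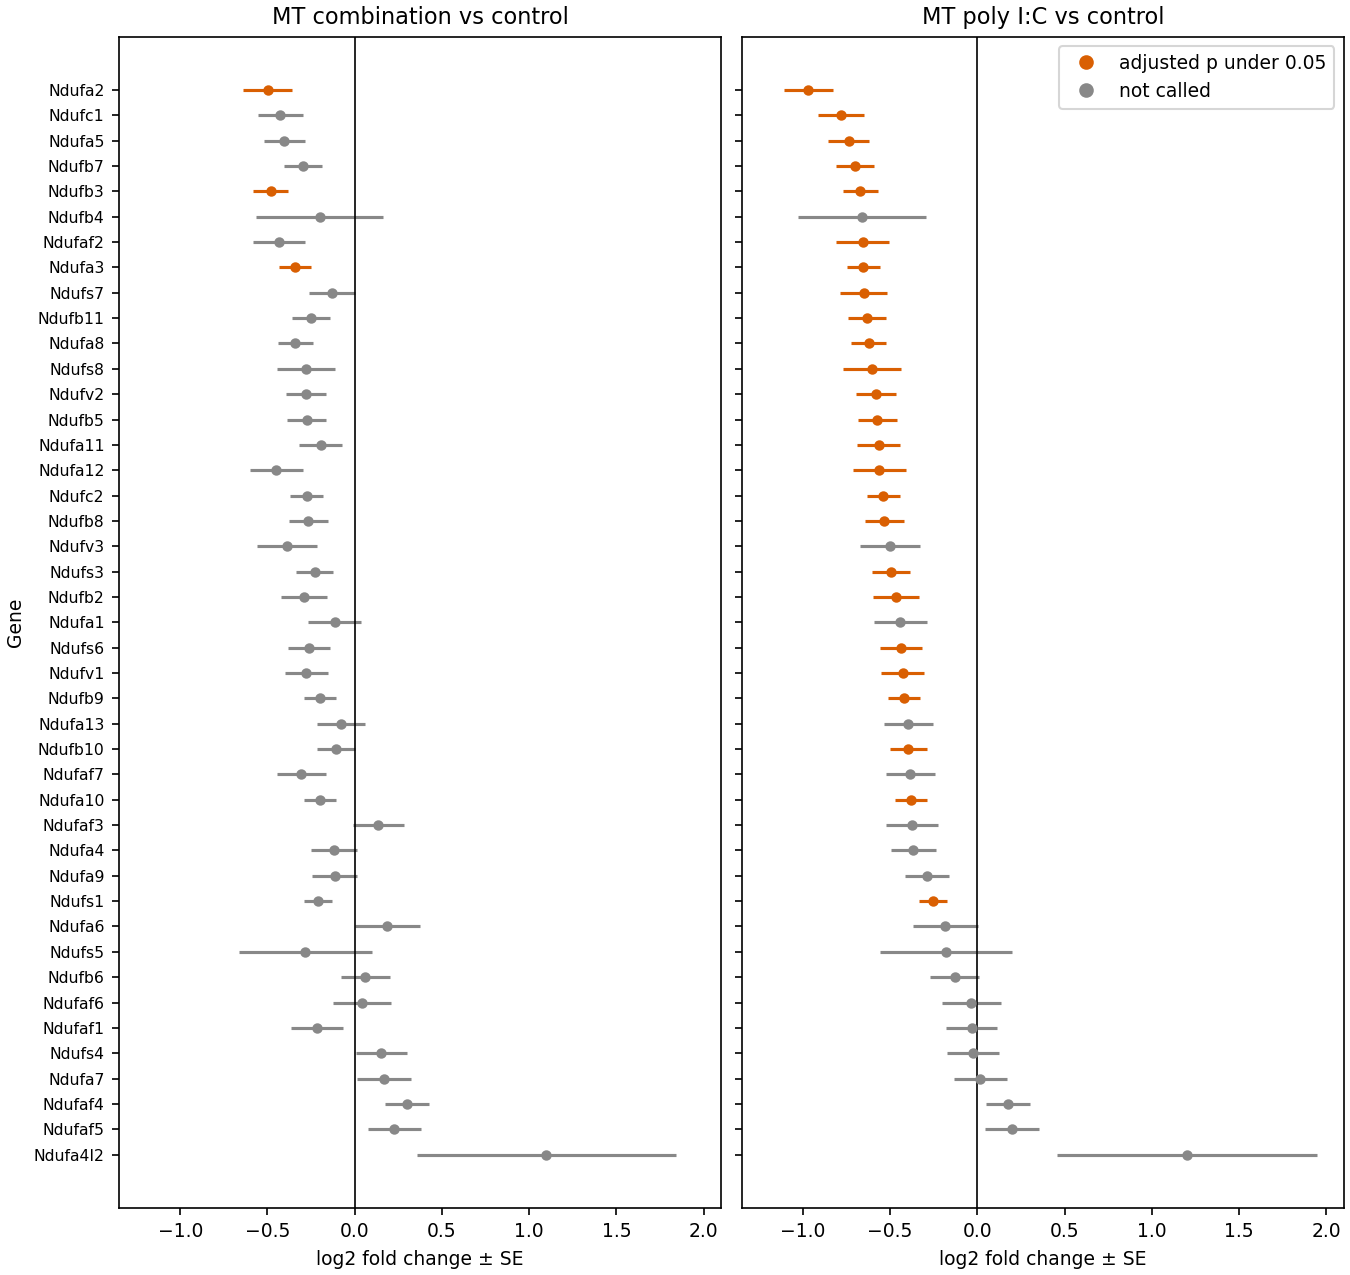
log2 fold change against control (horizontal axis, with SE bars) of 43 of the 44 Nduf genes (rows, ordered by the poly I:C change) in MT combination (left) and MT poly I:C tumours (right); orange points have an adjusted p under 0.05 and grey points do not. With poly I:C 25 of the genes drawn are called, all below 0, and with the combination 3 are called; Ndufa4l2 is the one far to the right of 0 in both panels and is called in neither.

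With phenformin added to poly I:C, fewer members were called lower against MT controls. In MT combination tumours 3 of 44 members were called lower and none higher, against 3.33% of all genes called lower and 2.81% higher, so the count is read beside the median of -0.22 over the members and 0.02 over all genes. Ndufb3 had 63.96, 67.8, 60.5 and 68.9 CPM in combination libraries, against 91.9, 104, 87.3 and 83.2 CPM in control libraries (log2 fold change -0.48 ± 0.10, adjusted p = 0.0254). Ndufa3, a short membrane subunit, had 45.00, 42.2, 40.05 and 43.1 CPM in combination, against 52.7, 53.4, 57.7 and 52.8 CPM in control libraries (log2 fold change -0.34 ± 0.09, adjusted p = 0.0461). Ndufa2 had 64.5, 55.9, 55.6 and 70.4 CPM in combination, against 76.3, 95.6, 102 and 75.6 CPM in control libraries (log2 fold change -0.50 ± 0.14, adjusted p = 0.0487). In all 3 genes the groups did not overlap.

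The 3 calls in MT combination tumours rest on the edge of the threshold. DESeq2 called 9 members and 16.6% of all genes, and at an unadjusted p under 0.05 edgeR had 21 members lower, against 15.9% of all genes. Leaving out control replicate 4 gave 12 calls, leaving out combination replicate 1 or control replicate 3 gave 1, and leaving out any of the other 5 libraries gave 0. The share of all genes called in these refits is not given here, so their counts are not read as results about the members. In the main fit no nuclear core subunit was called. In 18 alternatives the adjusted p reached 0.862 for Ndufb3, 0.92 for Ndufa3 and 0.955 for Ndufa2. The macrophage list had 7 of 8 genes called higher, with sums of 1409 to 2654 CPM in combination and 583 to 762 CPM in control libraries. Of 9 neutrophil genes 6 were called higher, with overlapping sums of 400.4 to 815 CPM in combination and 104 to 2536 CPM in control libraries, and S100a8 (log2 fold change -2.66 ± 1.25, adjusted p = 0.169) and Camp (log2 fold change -1.14 ± 0.93, adjusted p = 0.408) had negative estimates that were not called. Of 5 neural crest genes Sox10 was called lower (log2 fold change -6.16 ± 1.36, adjusted p = 0.0294), with sums of 17.9 to 43.1 CPM in combination and 32.5 to 253 CPM in control libraries. The part of these cells was not tested.

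Set directly against poly I:C alone, MT combination tumours had higher estimates for 41 of 44 members, where 51.2% of all genes had higher estimates. The median was 0.26 over the members and 0.01 over all genes. All 947 tested genes with a main transcript under 1 kb had a median of 0.22, so short transcripts as a class shifted the same way. The part of length was not tested. None of the members was called by edgeR (0% of all genes) or by DESeq2 (0.0224%). At an unadjusted p under 0.05 edgeR had 19 members higher and none lower, against 3.63% of all genes higher. The smallest p-values were those of Ndufs7 at 0.52 ± 0.13 (adjusted p = 0.817), Ndufb7 at 0.41 ± 0.11 (adjusted p = 0.817) and the assembly factor Ndufaf3 at 0.51 ± 0.15 (adjusted p = 0.817), as log2 fold changes. Ndufs7 had 35.4, 36.7, 29.7 and 41.8 CPM in combination libraries and 23.7, 23.1, 26.1 and 26.2 CPM in poly I:C libraries, without overlap.

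Phenformin alone gave no called member in MT tumours. Estimates were negative for 39 of 44, where 46.5% of all genes were negative, and 9 members had an unadjusted p under 0.05, all lower, against 2.98% of all genes. DESeq2 called none of the members and 0.112% of all genes, and edgeR called 0%. The smallest p-values were those of Ndufs6 at -0.40 ± 0.12 (adjusted p = 0.811), Ndufb3 at -0.31 ± 0.10 (adjusted p = 0.811) and Ndufs3 at -0.31 ± 0.11 (adjusted p = 0.811). Ndufs6, a zinc-binding matrix arm subunit, had 45.8, 50.9, 57.6 and 52.5 CPM in phenformin and 66.1, 73.6, 62.9 and 73.3 CPM in control libraries, without overlap. Phenformin libraries 1 and 2 shared the high Sox10 of 3 controls, and libraries 3 and 4 had high Krt5.

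Combination against phenformin alone in MT tumours had a member median of -0.03 and no call among the members by edgeR (0.106% of all genes) or DESeq2 (1.5%). At an unadjusted p under 0.05 it had 4 members, against 13.2% of all genes, and the smallest were Ndufa5 at -0.33 ± 0.12 (adjusted p = 0.285), Ndufaf4 at 0.36 ± 0.13 (adjusted p = 0.287) and Ndufc1 at -0.33 ± 0.13 (adjusted p = 0.317). The interaction, which asks whether the combination departs from the sum of the single effects, had a median of 0.42 over the members and -0.04 over all genes. The 947 tested genes with a main transcript under 1 kb had a median of 0.27, and the part of length was not tested. The interaction estimate was positive for 41 of 44 members, where 46.4% of all genes were positive. No member was called by edgeR, nor was any other gene (0%), and 27 members had an unadjusted p under 0.05, all positive, against 5.47% of all genes. DESeq2 called 1, Ndufa3, and 0.19% of all genes. The smallest edgeR p-values were those of Ndufa3 at 0.54 ± 0.13 (adjusted p = 0.385), Ndufb11 at 0.59 ± 0.15 (adjusted p = 0.385) and Ndufs3 at 0.57 ± 0.15 (adjusted p = 0.385). Gm12251, the copy of Ndufs3, had 0.33 ± 0.18 for the interaction. These contrasts share the MT control or single-arm libraries with those above.

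In 4T1 tumours few members were called. Poly I:C had 1 of 44 members called lower and none higher, against 3.06% of all genes called lower and 3.26% higher, and the median was -0.15 over the members and 0.01 over all genes. The called gene was Ndufb11, an X-linked subunit of the distal membrane arm, with 38.7, 31.5, 40.4 and 45.6 CPM in poly I:C libraries, against 49.95, 53.01, 51.9 and 60.9 CPM in control libraries (log2 fold change -0.44 ± 0.12, adjusted p = 0.0382). Its groups did not overlap. The call was lost in 9 of 18 alternatives, 6 of which left out 1 library, namely control replicates 2, 3 or 4 or poly I:C replicates 1, 2 or 3, and the adjusted p reached 0.25. DESeq2 called 2 members, Ndufb11 lower and Ndufa4l2 higher, and 11.3% of all genes, and edgeR without poly I:C replicate 4 also called 2. The share of all genes called in that refit is not given here.

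The core subunits were not called with poly I:C in 4T1 tumours. Ndufs7 had 15.9, 14.7, 19.7 and 18.1 CPM in poly I:C and 24.2, 18.02, 20.03 and 30.6 CPM in control libraries, which overlapped (log2 fold change -0.42 ± 0.14, adjusted p = 0.0923). Ndufa2 had 24.2, 24.8, 29.3 and 22.3 CPM in poly I:C and 27.05, 25.6, 27.3 and 43.4 CPM in control libraries. Ndufb3 had 47.1, 38.9, 41.1 and 31.6 CPM in poly I:C and 39.5, 41.8, 38.1 and 40.8 CPM in control libraries. Neither was called, and the groups overlapped for both. In contrast to MT, the macrophage list had 5 of 8 genes called lower, with sums of 1250.2 to 1953 CPM in poly I:C and 2909.7 to 4419 CPM in control libraries. Of 14 skeletal muscle genes 1 was called higher, with sums of 36.8 to 272 CPM in poly I:C and 27.4 to 32.8 CPM in control libraries. The part of these cells in the values was not tested.

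No member was called in the other 4T1 comparisons, by edgeR or by DESeq2. For phenformin against control (0% of all genes called by edgeR, 0.997% by DESeq2) the member median was 0.07, with 1 member under an unadjusted p of 0.05, against 10% of all genes. The smallest p-values were those of Ndufc2 at 0.28 ± 0.10 (adjusted p = 0.377), Ndufb3 at 0.21 ± 0.11 (adjusted p = 0.564) and Ndufv2 at 0.16 ± 0.09 (adjusted p = 0.571). For the combination against control (0% by edgeR, 2.29% by DESeq2) the median was -0.02, with 2 members under 0.05 unadjusted, against 11.9% of all genes. The smallest were Ndufaf1 at -0.24 ± 0.09 (adjusted p = 0.302), Ndufaf4 at -0.39 ± 0.17 (adjusted p = 0.381) and Ndufaf2 at -0.21 ± 0.13 (adjusted p = 0.545), all assembly factors. Sums of the skeletal muscle list were 39.2 to 1066 CPM in 4T1 combination, 29.2 to 253 CPM in phenformin and 27.4 to 32.8 CPM in control libraries. The part of muscle in the values was not tested.

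Combination against poly I:C in 4T1 had a member median of 0.09, no call by edgeR (0.246% of all genes) or DESeq2 (5.43%) and 10 members under an unadjusted p of 0.05, against 19.6% of all genes. The smallest p-values were led by Ndufb11 at 0.37 ± 0.12 (adjusted p = 0.116), Ndufaf4 at -0.53 ± 0.17 (adjusted p = 0.127) and Ndufv2 at 0.24 ± 0.08 (adjusted p = 0.142). Without poly I:C replicate 4 this comparison gave 4 calls, but the share of all genes called in that refit is not given here. Ndufb11 had 55.6, 49.9, 43.7 and 53.5 CPM in combination libraries and 38.7, 31.5, 40.4 and 45.6 CPM in poly I:C libraries, and the groups overlapped. Combination against phenformin had a median of -0.09 (0% of all genes called by edgeR, 1.03% by DESeq2), with 2 members under 0.05 unadjusted, against 12.5% of all genes. Ndufc2 at -0.26 ± 0.10 (adjusted p = 0.352), Ndufb3 at -0.27 ± 0.11 (adjusted p = 0.36) and Ndufa4 at -0.35 ± 0.18 (adjusted p = 0.433) had the smallest p. The 4T1 interaction had a median of 0.03 (0% of all genes called by edgeR, 0.206% by DESeq2) and 1 member under 0.05 unadjusted, against 9.33% of all genes. Its smallest p-values were those of Ndufb11 at 0.45 ± 0.17 (adjusted p = 0.505), Ndufb9 at 0.36 ± 0.19 (adjusted p = 0.582) and Ndufa3 at -0.30 ± 0.17 (adjusted p = 0.594).

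**Figure D3:**
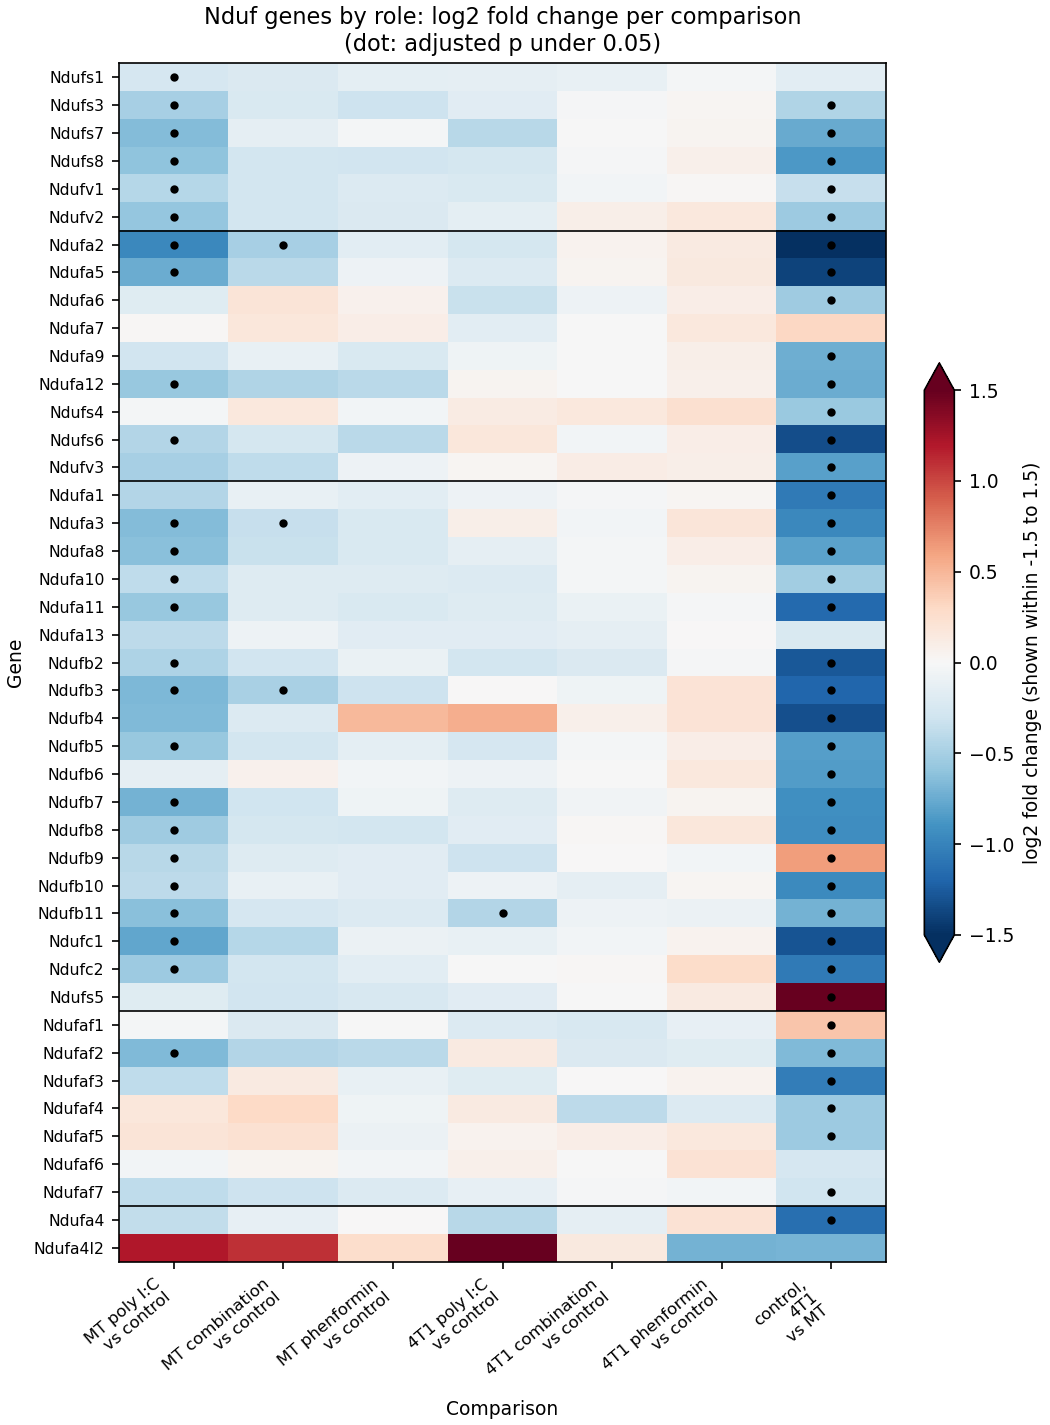
log2 fold change (colour, blue lower and red higher, clipped at -1.5 and 1.5) of 43 of the 44 Nduf genes (rows, grouped by role from core subunits at the top to Ndufa4 and Ndufa4l2 at the bottom) in 7 comparisons (columns); a black dot marks an adjusted p under 0.05. The MT poly I:C column has 25 dots, the MT combination column 3, the 4T1 poly I:C column 1, and the column of 4T1 against MT controls 38.

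The poly I:C effect on 12 members differed between the models in a joint fit of all 8 groups. All 12 had a higher log2 fold change in 4T1 than in MT, where 5.7% of all 18956 genes tested were called in that direction and 5.42% in the other. DESeq2 also called 12 (15.6% of all genes). By role, 6 were membrane arm accessory subunits, 4 matrix arm accessory subunits, 1 a core subunit (Ndufv2) and 1 an assembly factor (Ndufaf2). The smallest p was that of Ndufa3, with 30.2, 28.01, 32.9 and 25.03 CPM in 4T1 poly I:C and 26.8, 26.04, 24.7 and 33.4 CPM in 4T1 control libraries, against 39.4, 33.9, 29.3 and 33.6 CPM in MT poly I:C and 52.7, 53.4, 57.7 and 52.8 CPM in MT control libraries (difference of log2 fold changes 0.74 ± 0.15, adjusted p = 0.00232). The 4T1 groups overlapped and the MT groups did not. The next were Ndufb3 (0.67 ± 0.14, adjusted p = 0.00401), Ndufaf2 (0.79 ± 0.20, adjusted p = 0.0111), Ndufc2, of the proximal membrane arm (0.52 ± 0.13, adjusted p = 0.0114), Ndufa8 (0.48 ± 0.13, adjusted p = 0.0155) and Ndufa2 (0.69 ± 0.21, adjusted p = 0.0354).

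The count of 12 moved with single libraries. It was 5 without 4T1 control replicate 1 or 2, MT control replicate 2, or MT poly I:C replicate 2, 3 or 4, and 6 without 4T1 control replicate 3, 4T1 poly I:C replicate 3 or MT control replicate 3. Without the 6 MT libraries above 10 CPM Sox10 it was 0, without the 5 4T1 libraries above 10 CPM Acta1 it was 2, and macrophage genes, all 8 called for the same difference in the opposite direction, moved with it. Their part was not tested. The share of all genes called in these refits is not given here.

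For the phenformin effect, 4T1 minus MT, no member was called by edgeR (0% of all genes) or DESeq2 (0.164%), and 9 members had an unadjusted p under 0.05, all higher, against 3.66% of all genes. The smallest p-values were those of Ndufb3 at 0.53 ± 0.15 (adjusted p = 0.332), Ndufc2 at 0.46 ± 0.13 (adjusted p = 0.352) and Ndufv2 at 0.40 ± 0.14 (adjusted p = 0.487), as differences of log2 fold changes. For the combination effect edgeR called none of the members (4.56% of all genes) and DESeq2 called 3 (11.1% of all genes). At an unadjusted edgeR p under 0.05 there were 9, against 25.5% of all genes. In edgeR the smallest were those of Ndufaf4 at -0.70 ± 0.22 (adjusted p = 0.0568), Ndufb3 at 0.41 ± 0.14 (adjusted p = 0.0843) and Ndufv2 at 0.36 ± 0.14 (adjusted p = 0.106). Leaving out MT control replicate 4 gave 5 calls for the combination effect, and leaving out 4T1 combination replicate 4 or 4T1 control replicate 4 gave 1 each. The share of all genes called in these refits is not given here, so their counts are not read as results about the members.

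Between untreated tumours of the models most complex I genes differed. In 4T1 controls 35 of 44 members were called lower than in MT controls and 3 higher, against 25.2% of all genes called lower and 26.7% higher. The median was -0.76 over the members and near 0 over all genes. Of the core subunits 5 of 7 were lower, of the matrix arm subunits 8 of 9, of the membrane arm subunits 16 of 19 and of the assembly factors 5 of 7. The labels make model, strain and cell line one and the same factor, so they cannot be told apart here. DESeq2 called 40 members and 54% of all genes, and the alternative fits gave 34 to 40 calls.

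In reads assigned to the genes alone, the largest decreases in 4T1 controls were those of Ndufa2, Ndufa5, Ndufs6, Ndufb4, Ndufc1 and Ndufb2, and the place of Ndufb4 among them does not hold once its copy is counted. Ndufa2 had 27.05, 25.6, 27.3 and 43.4 CPM in 4T1 controls, against 76.3, 95.6, 102 and 75.6 CPM in MT controls (log2 fold change -1.51 ± 0.15, adjusted p = 1.32e-08). Ndufa5 had 27.05, 26.7, 26.7 and 33.5 CPM in 4T1 controls, against 73.1, 76.5, 72.1 and 76.6 CPM in MT controls (log2 fold change -1.39 ± 0.12, adjusted p = 8.15e-10). No library of one model reached the range of the other for either gene. Ndufs6 had 24.9, 24.6, 29.9 and 30.7 CPM in 4T1, against 66.1, 73.6, 62.9 and 73.3 CPM in MT controls (log2 fold change -1.32 ± 0.14, adjusted p = 1.67e-08), and Ndufc1 had 15.3, 15.4, 17.6 and 24.4 CPM in 4T1, against 44.4, 47.02, 51.2 and 35.8 CPM in MT controls (log2 fold change -1.30 ± 0.15, adjusted p = 7.61e-08). Ndufb2, of the distal membrane arm, averaged 14.3 ± 1.66 CPM in 4T1 and 34.5 ± 5.56 CPM in MT controls (log2 fold change -1.27 ± 0.15, adjusted p = 1.65e-07). These groups too were separate. Ndufb4 was low in both models, with 0.807, 0.819, 1.06 and 1.49 CPM in 4T1 and 2.23, 1.51, 2.28 and 4.48 CPM in MT controls (log2 fold change -1.32 ± 0.34, adjusted p = 0.00225). With the reads of its processed pseudogene Ndufb4c added, the log2 fold change was -0.64 ± 0.24 (SE, adjusted p = 0.029), a smaller decrease than those of Ndufb3, Ndufa11 and Ndufc2 in the same fit (-1.19, -1.17 and -1.06).

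The core subunits varied among themselves between untreated models. Ndufs8, an iron-sulfur subunit, averaged 44.4 ± 4.18 CPM in 4T1 and 80.7 ± 15.2 CPM in MT controls (log2 fold change -0.86 ± 0.14, adjusted p = 1.61e-05). Ndufv1, which binds NADH and flavin, had 73.5, 67.8, 71.3 and 96.9 CPM in 4T1 and 83.3, 115, 104 and 90.2 CPM in MT controls (log2 fold change -0.34 ± 0.13, adjusted p = 0.0235), and its groups overlapped. The members higher in 4T1 controls were Ndufs5, Ndufb9 and Ndufaf1, which acts in an early assembly complex of the membrane arm. Ndufaf1 had 21.8, 21.2, 21.04 and 18.2 CPM in 4T1 and 15.7, 14.6, 17.4 and 13.8 CPM in MT controls (log2 fold change 0.42 ± 0.12, adjusted p = 0.00497). Ndufb9 had 147, 161, 164 and 181 CPM in 4T1 and 98.95, 112, 111 and 102 CPM in MT controls (log2 fold change 0.63 ± 0.11, adjusted p = 5.17e-05), and 23.4% of its 50-base stretches also lie in the annotated gene Gm49356. Neither gene's groups overlapped.

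The rise of Ndufs5, a subunit of the intermembrane space face (chr4:123712710-123718202, minus strand, GENCODE M21 on GRCm38), turned round when its copy was included. Ndufs5 itself had 7.47, 8.30, 8.34 and 10.9 CPM in 4T1 controls, against 0.744, 0.558, 1.34 and 0.895 CPM in MT controls (log2 fold change 3.29 ± 0.28, adjusted p = 8.42e-10). BC002163, the processed pseudogene on chromosome 16 with which it shares sequence, had 29.9, 27.8, 29.1 and 36.4 CPM in 4T1 controls, against 75.7, 82.7, 79.6 and 80.3 CPM in MT controls. The groups were separate for both, in opposite directions. Summed, the pair came to 39.5 ± 5.18 CPM in 4T1 and 80.5 ± 2.84 CPM in MT controls (SD, n = 4 each), and the pooled count gave a log2 fold change of -1.03 (adjusted p = 2.79e-09). Ndufs5 held 22.1% of the pair's level in 4T1 controls and 1.11% in MT controls. How the deposited counting split reads between the copies is not given in the sources used here, so the direction for Ndufs5 is uncertain.

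**Figure D4:**
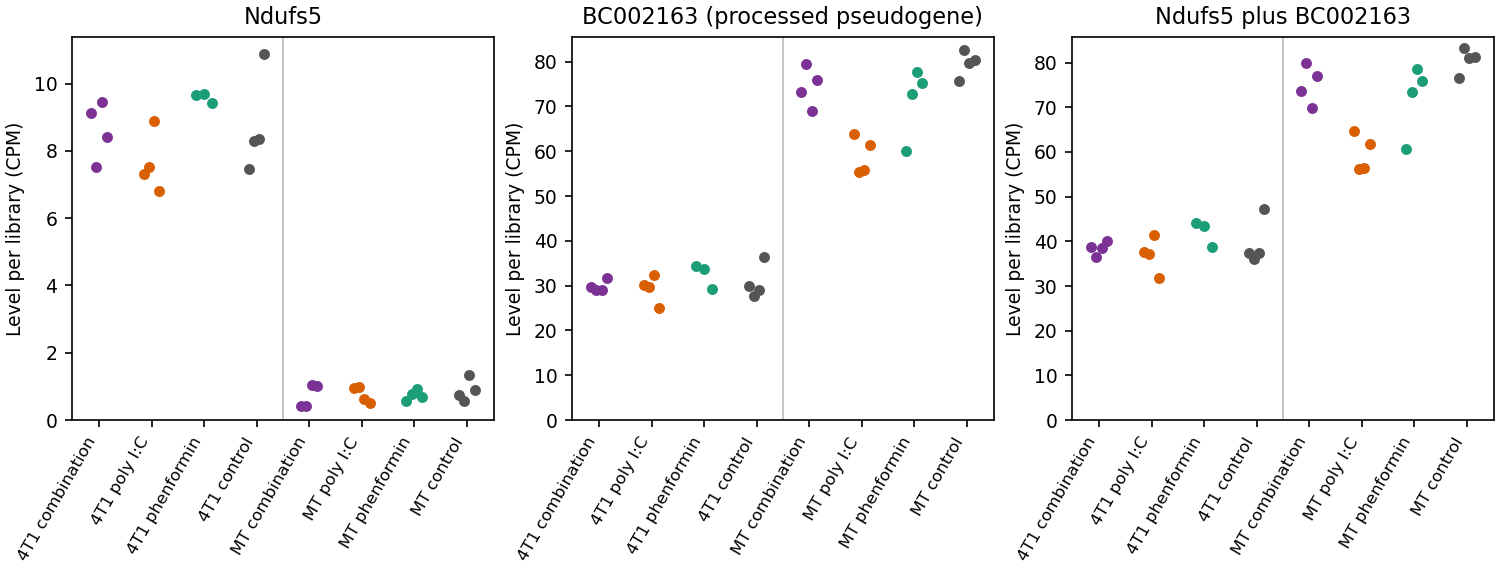
Level per library in CPM (vertical axes, from 0) of Ndufs5 (left), its processed pseudogene BC002163 (middle) and their sum (right), by model and arm; each point is 1 library. Ndufs5 is higher in every 4T1 library than in any MT library, and the pseudogene and the sum are lower in every 4T1 library.

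Transcript length moved with the size of these differences. Between control groups, the 24 members with a main transcript under 1 kb had a median of -0.93 with 20 lower and 2 higher, and the 20 longer members had a median of -0.54 with 15 lower and 1 higher. All 1017 tested genes with a transcript under 1 kb had a median of -0.46, and 43.5% were called lower. For MT poly I:C against control, 16 of the 24 short members and 10 of the 20 longer ones were called lower, with medians of -0.55 and -0.39. All 947 short genes in that fit had a median of -0.26, and 26% were called lower. Short transcripts as a class thus shifted the same way as the members, and the part of length in the results was not tested.

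Of the members by name outside complex I, Ndufa4 was called lower in 4T1 controls, with 69.4, 89.2, 92.4 and 91.4 CPM, against 158, 176, 190.3 and 227 CPM in MT controls (log2 fold change -1.13 ± 0.15, adjusted p = 1.12e-06), and the groups were separate. It was not called for any treatment. Ndufa4l2, a target of hypoxia-inducible factor that lowers complex I activity, was called in no comparison by edgeR. In 4T1 it had 2.23, 5.53, 4.66 and 6.87 CPM in combination libraries, 11.1, 10.7, 29.6 and 2.77 CPM in poly I:C, 3.22, 2.24 and 2.70 CPM in phenformin and 6.77, 1.69, 6.003 and 3.23 CPM in control libraries. Of the 4T1 poly I:C libraries 3 lay above all controls and replicate 4 did not (log2 fold change 1.64 ± 0.57, adjusted p = 0.0983). In the same comparison a list of 14 hypoxia-responsive genes had 6 called higher and 1 lower, among them Egln1 (log2 fold change 0.58 ± 0.10, adjusted p = 0.0096) and Kdm3a (log2 fold change 0.56 ± 0.11, adjusted p = 0.0149) higher and Egln3 (log2 fold change -0.76 ± 0.18, adjusted p = 0.0251) lower.

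Within the MT model the levels of Ndufa4l2 moved with Krt5. It had 3.60, 21.3, 19.3 and 17.2 CPM in combination libraries, 23.6, 9.87, 13.1 and 19.1 CPM in poly I:C, 3.25, 3.44, 16.5 and 10.7 CPM in phenformin and 2.87, 4.06, 2.08 and 19.9 CPM in control libraries. The 5 libraries with 37.5 CPM of Krt5 or less, and combination replicate 1 with 330.0 CPM of Krt5, held the 6 lowest values. Control replicate 4 and phenformin replicates 3 and 4, with Krt5 of 1029 CPM or more, had 10.7 to 19.9 CPM. All poly I:C libraries had high Krt5 and 1 of 4 controls did. The poly I:C against control comparison of Ndufa4l2 (log2 fold change 1.20 ± 0.75, adjusted p = 0.258) therefore does not by itself separate poly I:C from this tumour state. The part of each across the 16 MT libraries was not tested.

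**Figure D5:**
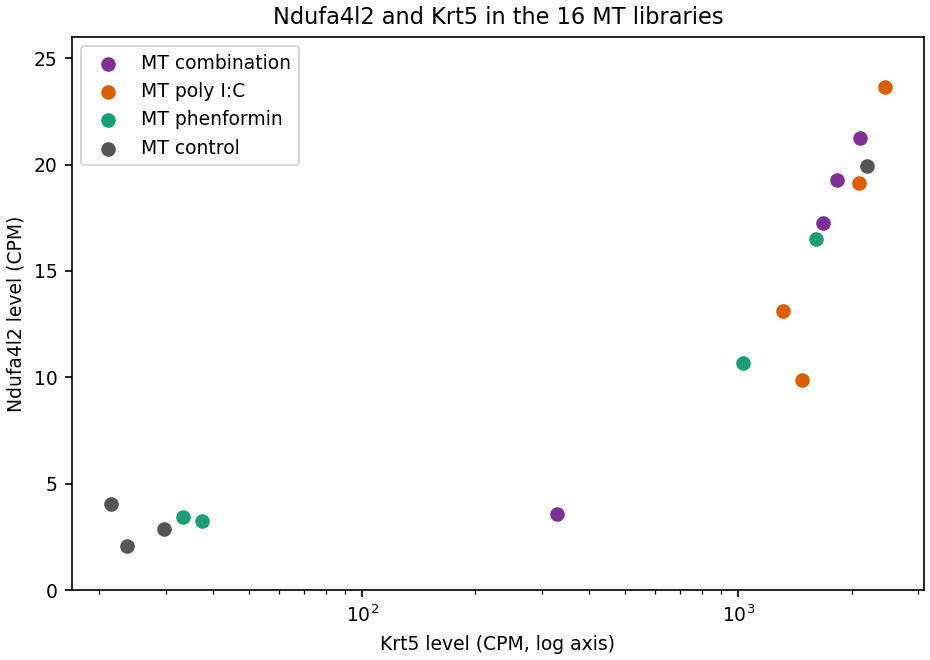
Ndufa4l2 (vertical axis, CPM, from 0) against the basal keratin Krt5 (horizontal axis, CPM, log scale) in the 16 MT libraries, coloured by arm. Libraries with 37.5 CPM of Krt5 or less have 2.08 to 4.06 CPM of Ndufa4l2, and those with 1029 CPM or more have 9.87 to 23.6 CPM.

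The core subunits encoded in mitochondrial DNA gave no calls in the treated arms. None of the 7 mitochondrially encoded subunits was called for any treatment in either model. Their summed level was 6805 to 18830.4 CPM in MT poly I:C libraries and 6847 to 14887 CPM in MT control libraries. It was 6886 to 31711 CPM in MT phenformin and 3050 to 12903 CPM in MT combination libraries, and replicates spread widely. For MT phenformin against control the log2 fold changes ran between 0.47 ± 0.43 (mt-Nd3) and 1.01 ± 0.59 (mt-Nd5), none called. In 4T1 controls 3 of 7 were called lower than in MT controls, namely mt-Nd6 (log2 fold change -1.38 ± 0.32, adjusted p = 0.000887), mt-Nd3 (log2 fold change -1.04 ± 0.35, adjusted p = 0.0163) and mt-Nd1 (log2 fold change -0.99 ± 0.37, adjusted p = 0.0284). Libraries were made from poly(A) RNA, which limits what these values say about mitochondrial transcripts.

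Complex I genes with other names were read from a list of 16, of which 14 were in the table. In 4T1 controls 6 were called lower and 2 higher, where 25.2% of all tested genes were called lower and 26.7% higher, and none was called for any treatment. Ndufaf8, listed in the table under an older symbol and matched by gene identifier, had 5.27, 3.22, 5.79 and 6.77 CPM in 4T1 controls, against 21.2, 23.8, 19.2 and 28.6 CPM in MT controls (log2 fold change -2.14 ± 0.24, adjusted p = 7.26e-08). Its groups were separate. Ecsit (log2 fold change -0.94 ± 0.13, adjusted p = 2.51e-06) and Acad9 (log2 fold change -0.81 ± 0.12, adjusted p = 4.09e-06), partners of Ndufaf1 in the same assembly complex, were lower although Ndufaf1 was higher. The assembly factor Foxred1 (log2 fold change 0.47 ± 0.14, adjusted p = 0.00562) was higher.

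Nuclear subunits of complexes II to V gave the comparison for the rest of the chain. In MT poly I:C tumours 14 of 36 tested were called lower and none higher, with a median of -0.35, where 11.1% of all tested genes were called lower. Among the 14 were Cox6a1 (log2 fold change -0.67 ± 0.11, adjusted p = 0.00197) and Cox4i1 (log2 fold change -0.71 ± 0.12, adjusted p = 0.00268), subunits of cytochrome c oxidase. In 4T1 controls 30 of 37 were called lower than in MT controls and none higher, with a median of -0.62, where 25.2% of all tested genes were called lower. Whether complex I differed from the other complexes was not tested. Of 9 regulators of mitochondrial biogenesis none was called for MT poly I:C. In 4T1 controls Myc (log2 fold change 1.17 ± 0.12, adjusted p = 1.88e-08), the coactivator Pprc1 (log2 fold change 0.66 ± 0.11, adjusted p = 2.57e-05) and Gabpa (log2 fold change 0.42 ± 0.13, adjusted p = 0.00926) were higher and the coactivator Ppargc1a (log2 fold change -4.24 ± 0.62, adjusted p = 3.81e-06) was lower. The macrophage list had all 8 genes called higher in 4T1 controls, with sums of 2909.7 to 4419 CPM, against 583 to 762 CPM in MT controls.

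Other marker lists also differed between the control groups. Of 8 epithelial genes Krt7, Krt8 and Krt18 were called higher in 4T1 controls and Krt5 lower (log2 fold change -8.09 ± 1.53, adjusted p = 9.31e-05), with sums of 2494 to 3854 CPM in 4T1 and 1229 to 5901 CPM in MT controls. Krt5 had 1.49 to 3.06 CPM in 4T1 controls and 21.4 to 2199 CPM in MT controls, where the median was 26.7 CPM. The size of its fold change rests largely on the MT control with high Krt5 described above. Of 5 neural crest genes 2 were called lower, Sox10 (log2 fold change -7.46 ± 1.20, adjusted p = 1.3e-05) and S100b (log2 fold change -1.20 ± 0.39, adjusted p = 0.0121), with sums of 23.8 to 25.3 CPM in 4T1 and 32.5 to 253 CPM in MT controls. Neutrophil genes went both ways, with 5 of 9 called higher, led by Retnlg (log2 fold change 3.69 ± 0.84, adjusted p = 0.000694), and 3 called lower, among them Camp (log2 fold change -5.36 ± 0.95, adjusted p = 4.44e-05). Their sums were 87.5 to 177 CPM in 4T1 and 104 to 2536 CPM in MT controls. Of 14 hypoxia-responsive genes 6 were called lower, among them the glycolytic genes Pgk1 (log2 fold change -1.51 ± 0.26, adjusted p = 2.48e-05) and Ldha (log2 fold change -1.27 ± 0.20, adjusted p = 1.09e-05) and the mitophagy receptor Bnip3 (log2 fold change -1.34 ± 0.32, adjusted p = 0.000925), and 1 was called higher. Of 14 skeletal muscle genes 2 were called higher and none lower. The part of these cells and genes in the complex I differences was not tested.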

How the data were processed

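Bulk RNA-seq counts from 31 libraries in 8 groups of 2 tumour models and 4 arms were used. The deposited table holds raw read counts per gene, made by the authors. Per the submitters' processing notes, the tools were Trimmomatic 0.32.48, STAR 2.3.0 and featureCounts 1.4.4 with mm10/GRCm38. Per the labels' protocols, RNA was column-purified from pelleted cells or frozen tumour and the libraries keep strand; the annotation release and the strand setting of the counting are not given in the sources used here. Gene lengths and copies were read from GENCODE M21.

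Each model was fitted alone (4 groups), and all 8 groups jointly for differences between models, with edgeR 4.0.16 (R 4.3.3; TMM scaling; quasi-likelihood test; filterByExpr with a minimum count of 10 and minimum total of 15) and Benjamini-Hochberg adjustment over 17445 genes for 4T1, 17857 for MT and 18956 jointly. Levels are CPM, computed from the counts with TMM factors over all libraries. DESeq2 1.42.0 was an alternative. The edgeR script was tested on simulated data. Main alternatives were other scalings and filters, the replicate number as a block, the compared groups alone, and leaving out each library. Library totals, marker-defined library exclusions, a Krt5-to-Sox10 covariate and pooling of pseudogene copies were added after seeing the data.

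The members, gene lists and tests were chosen with earlier results of these data known, so no list is independent support. Named were, per comparison, up to 6 called members with the largest change in each direction (smallest p for differences between models), the 3 with the smallest p where none was called, examples of core subunits, Ndufa4 and Ndufa4l2, and up to 3 called genes per context list. Ndufs4, Ndufa7, Ndufb6, Ndufaf4 and Ndufaf5, as members that were not called, and Foxred1, Gabpa, S100a8, S100b, Camp, Retnlg, Bnip3 and the keratins were chosen after their values were seen. Same-numbered replicates were not treated as pairs. 1 member is counted throughout but not reported by name here.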

Additional observations from a re-analysis of the deposited data

Results flagged for a closer look

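Dixon's test at the 95% level was run on 175 groups of 4 libraries, over 24 named members and the summed level of all members. In 12 of these groups 1 library stood apart from the other 3, which chance does in about 1 in 20 groups. Among 4T1 libraries, control replicate 4 was the highest of its group for Ndufa2 (43.4 CPM, the others 25.6 to 27.3) and Ndufa5 (33.5 CPM, the others 26.7 to 27.0), and control replicate 1 the lowest for Ndufa4 (69.4 CPM, the others 89.2 to 92.4). Combination replicate 3 was the lowest 4T1 combination library for Ndufa3 (24.4 CPM, the others 27.1 to 27.6) and replicate 4 the highest for Ndufb3 (42.8 CPM, the others 36.1 to 36.8).

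Among MT libraries, phenformin replicate 2 was the highest of its group for Ndufb3 (81.9 CPM, the others 69.7 to 71.2) and phenformin replicate 4 the lowest for Ndufb9 (82.4 CPM, the others 95.8 to 97.2). Control replicate 4, the MT control with high Krt5, was the highest for Ndufa4l2 (19.9 CPM, the others 2.08 to 4.06) and Ndufaf4 (39.4 CPM, the others 30.4 to 31.4). Control replicate 3 was the highest for Ndufa3 (57.7 CPM, the others 52.7 to 53.4) and Ndufaf3 (14.4 CPM, the others 10.9 to 11.4), and control replicate 2 for Ndufs3 (64.8 CPM, the others 57.6 to 58.6).

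The log2 fold change with poly I:C differed between 4T1 and MT tumours for 12 members, by the interaction in the joint edgeR fit. The difference, 4T1 minus MT, was 0.74 for Ndufa3, 0.67 for Ndufb3, 0.79 for Ndufaf2, 0.52 for Ndufc2, 0.48 for Ndufa8 and 0.69 for Ndufa2. It was 0.66 for Ndufc1, 0.53 for Ndufa5, 0.60 for Ndufs6, 0.43 for Ndufv2, 0.50 for Ndufb7 and 0.59 for Ndufa12.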

How the results depend on the processing

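Counts of members below stand without the share of all genes called in the same refit, which is not given here. The count of 38 members between untreated models was 34 to 40 under the alternatives and 36 to 39 with each library left out. The count of 26 members in MT poly I:C tumours was 18 to 30 with each library left out. The fit without the MT libraries above 10 CPM Sox10 leaves 1 control, so its count is not read. The 3 members in MT combination tumours became 9 with DESeq2, 1 with DESeq2 size factors, 1 with library totals, 1 with the replicate block, and 0 with no filter on low counts, with the compared groups alone, without the Sox10-high libraries or with the Krt5-to-Sox10 covariate, and 0 to 12 with each library left out. The 1 member in 4T1 poly I:C tumours became 2 with DESeq2, 0 with the compared groups alone, 0 without libraries high in Acta1 or in Igkc, and 0 to 2 with each library left out. The 12 members whose poly I:C effect differed between models became 4 with no filter, 3 with library totals, 0 without the Sox10-high libraries, 2 without the Acta1-high libraries, and 5 to 13 with each library left out. Where none was called, DESeq2 gave 1 for the MT interaction and 3 for the difference in combination effect, which was also 1 without the Igkc-high libraries and 0 to 5 with each library left out; 4T1 combination against poly I:C gave 0 to 4. Ndufs5 reversed to -1.03 between untreated models once its pseudogene copy was pooled. Of 1302 checks of single named genes, 1181 kept direction and side of the threshold, 110 lost the call, 10 gained one and 1 reversed. Apart from the pooling, the cause of each change was not tested. Marker-defined exclusions left fewer samples and also removed the libraries high in the marker, and the part of each was not tested. Library totals moved the median log2 fold change of all genes by 0.10 for MT poly I:C, by -0.12 for the difference in poly I:C effect and by -0.13 for the difference in combination effect, and by less elsewhere. Of same-numbered replicates, 5 of 21 pairs in 4T1 and 11 of 24 in MT had a correlation over 0.1. Of different-numbered ones, 22 of 63 and 32 of 72 did. Between MT control and phenformin, same-numbered pairs had 0.707, 0.707 and 0.767 for replicates 1, 2 and 4 and -0.413 for replicate 3. Different-numbered pairs there also reached high values, such as 0.665 for control replicate 3 with phenformin replicate 1. With the replicate block MT poly I:C gave 24 calls, the untreated models 37 and the poly I:C difference 8. Low counts limit Ndufs5 in MT and Ndufb4 in both models.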
